A study of Mus musculus with 30 samples.

Results

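The 880 chromatin sites described here came from the authors' list of sites whose signal differed between blebbistatin and its solvent DMSO in fibroblasts that received no doxycycline. They were chosen by the authors' FDR and fold in that comparison and by absence from a second list: they are the sites that share no base with any site of a second blebbistatin list, made from separate ATAC libraries. The first list held 1231 sites, of which 351 overlapped the second list and 880 did not. The 5 site lists of the series hold 16367 sites together. Of the 880 sites, 869 were lower and 11 were higher with blebbistatin, and these directions belong to the values by which the sites were chosen.

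The cells were primary mouse tail-tendon fibroblasts, labelled wildtype in every library and treated in medium with 0.1% serum. The sites come from 3 libraries with DMSO and neither drug and 3 libraries with blebbistatin at 10 µM, both without doxycycline. Another 6 libraries of that experiment received doxycycline at 10 ng/mL, alone in 3 and with blebbistatin in 3. The labels name ATAC, which reads accessible chromatin with a transposase, as the genomic protocol, but give no assay for these 12 libraries in particular and do not say what doxycycline switched on. A separate set of 9 ATAC libraries compared DMSO, blebbistatin at 10 µM and Y27632 at 30 µM, with 3 libraries each, and 9 RNA libraries repeated those treatments. Nothing in the labels says whether libraries of a group came from separate animals or cultures, so p-values measure only the spread between these libraries, which may be technical.

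Blebbistatin blocks the motor of non-muscle myosin II, while Y27632 acts on kinases upstream of that motor, so both lower the tension of the actin cytoskeleton. In fibroblasts this tension is known to control YAP and TAZ, co-activators that bind DNA through TEAD factors, often beside AP-1 at enhancers far from genes, and MRTF, a partner of the serum response factor SRF that binds a motif called the CArG box. Well-known targets of YAP and TAZ are Ccn1 and Ccn2, secreted matrix-associated proteins, while those of SRF encode actin-binding proteins.

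Of the 880 sites, 14 overlapped a RefSeq promoter window, taken as 250 bases before to 50 bases after a gene's start, in 15 windows of GRCm38.p6. Sequence could be read only there. Short stretches were left out, as were windows of genes other than the one annotated to the site, with an exception made for Ccn1. Of the rest, the 4 stretches that hold at least 1 of the motifs marked below are shown. Other windows that hold a motif are therefore not shown. Capitals mark the TEAD core (GGAATG), the AP-1 site (TGANTCA), the RUNX core (TGTGGT) and the CArG box, searched on both strands, so that CATTCC marks a TEAD core on the opposite strand. Every stretch lies before the start and is written 5′ to 3′ along the gene's strand. The stretch named Gm40164, at chr3:145632974-145633223 on the minus strand, begins a non-coding RNA and belongs to a site that the authors annotated to Ccn1. The others lie at the starts of Radil (chr5:142545028-142545277, minus strand), Lurap1l (chr4:80910463-80910685, plus strand) and Fhl1 (chrX:56779433-56779602, plus strand).
Gm40164: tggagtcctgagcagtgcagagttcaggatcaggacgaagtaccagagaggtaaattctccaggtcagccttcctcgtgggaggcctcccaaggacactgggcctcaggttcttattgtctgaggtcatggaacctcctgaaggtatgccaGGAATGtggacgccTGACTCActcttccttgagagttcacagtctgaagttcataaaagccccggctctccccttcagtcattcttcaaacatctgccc
Radil: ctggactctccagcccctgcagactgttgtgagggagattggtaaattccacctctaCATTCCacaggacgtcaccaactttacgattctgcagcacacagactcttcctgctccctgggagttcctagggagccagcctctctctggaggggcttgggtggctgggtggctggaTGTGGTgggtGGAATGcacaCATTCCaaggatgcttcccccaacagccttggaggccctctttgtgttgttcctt
Lurap1l: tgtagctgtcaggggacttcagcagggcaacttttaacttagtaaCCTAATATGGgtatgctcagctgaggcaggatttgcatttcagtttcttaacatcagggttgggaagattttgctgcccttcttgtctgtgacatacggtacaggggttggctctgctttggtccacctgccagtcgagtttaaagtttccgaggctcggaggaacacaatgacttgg
Fhl1: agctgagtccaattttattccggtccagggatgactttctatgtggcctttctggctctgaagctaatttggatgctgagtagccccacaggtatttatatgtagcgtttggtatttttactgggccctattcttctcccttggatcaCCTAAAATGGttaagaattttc

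The Ccn1-annotated stretch carried a TEAD core followed after 8 bases by an AP-1 site, and the Radil stretch carried 3 TEAD cores, the last pair of them 4 bases apart. Lurap1l and Fhl1 each carried 1 CArG box. Over all 15 windows, of which 2 overlap each other at Gm14064, 9 held a TEAD core. This compares with 14.7% of 32851 RefSeq promoter windows of the same length. An AP-1 site was in 2 of the 15 windows, against 7.81% of all windows. The CArG box was in 2 and the RUNX core in 2, against 1.63% and 16.8%. Also searched but not marked, the E-box (CANNTG) was in 11 and the CRE (TGACGTCA) in 0, against 72.3% and 1.79%. These are matches of letters, and the windows were reached only because a site was listed there.

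The 880 sites were short stretches, most of them between genes or in introns. Their width had a median of 233 bp, from 75 to 977 bp, and their distance to the nearest annotated transcription start had a median of 43756 bp. The authors' annotation placed 446 between genes, 394 in introns, 13 in promoters and 13 at transcription ends. A repeat element was named for 190 sites (21.6%), of which 85 were long terminal repeats of retroviral origin, 62 were LINEs and 23 were SINEs. For the 351 sites that are also in the ATAC list, 18.8% were in repeats and 16.0% lay within 10000 bp of a transcription start, close to the 21.6% and 17.0% of the 880. None of those 351 was annotated as a promoter, against 1.48% of the 880. Promoters were also few in the other blebbistatin lists, at 0.825% of the whole ATAC list and 1.78% of the list with doxycycline.

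Site values are the authors' log2 levels, 1 mean per group, and their log2 folds, with no values per library, so no error or test of a site could be computed here. The level in the group with neither drug had a median of 6.01 over the 880 sites, and with blebbistatin it was 4.88. The log2 fold had a median of -1.15 and ran from -2.67 to 1.28. The list kept sites at a false discovery rate (FDR) of at most 0.05 and an absolute log2 fold of at least 1, and it amounts to 1.78% of an estimated 68975 sites tested, a share that the choice of sites already used.

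**Figure D1:**
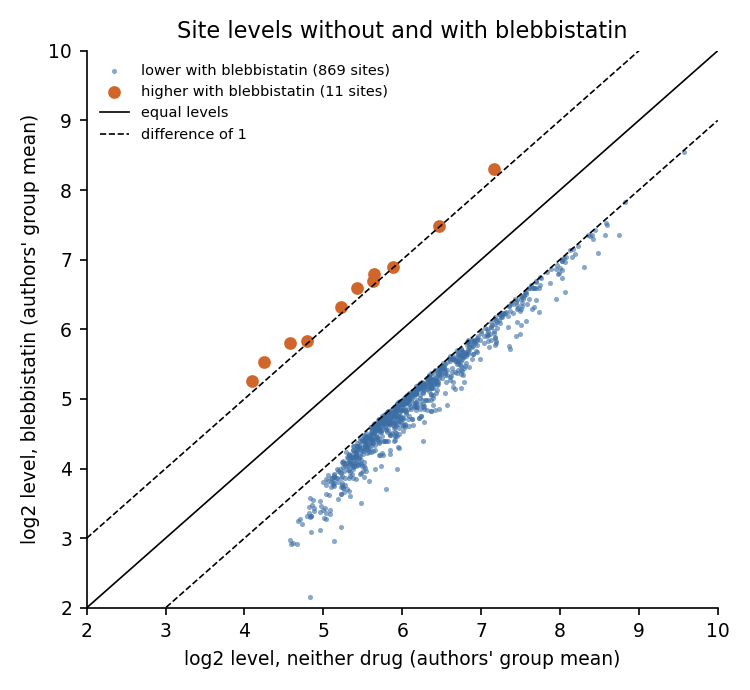
Authors' mean log2 level of each of the 880 sites with neither drug (horizontal axis) and with blebbistatin (vertical axis). The 869 lower sites lie on or under the dashed line of a log2 difference of 1 and the 11 higher sites on or above the opposite one, as the rule of the list requires.

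Sites inside and outside the ATAC list differed in the values that chose them, which are given here without a test. The 351 sites in both lists had a median log2 fold of -1.25, a median level with neither drug of 6.42 and a median width of 298 bp. The smallest absolute log2 fold in the ATAC list was 1.24, and 583 of the 880 sites (66.2%) had a fold nearer 0 than that, against 168 of the 351 (47.9%). At the edge of the rule, the nearest of the 880 sites lay 34 bp from a site of the ATAC list and 21 lay within 500 bp, while the smallest overlap among the 351 was 78 bp. A site outside the ATAC list is one that did not reach that list's thresholds, and its level in those libraries was not analysed here.

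The next comparison asked how many of the sites were listed again where both groups carried doxycycline. In that pair of groups, which shares no library with the pair that chose the sites, 293 of the 880 sites (33.3%) were listed, and all 293 were lower with blebbistatin. Sites listed as lower made up 8.73% of an estimated 72539 sites tested there, and listed sites of either direction 8.75%. Of the 351 sites that are also in the ATAC list, 115 (32.8%) were listed under doxycycline, all lower. The 293 sites overlapped 289 sites of the list with doxycycline, which are 4.55% of that list.

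At these 293 sites the median log2 fold was -1.18 without doxycycline and -1.14 with it. The difference between the folds, with minus without doxycycline, had a mean of 0.05 and an SD of 0.21 over sites, and 111 sites had the larger drop with doxycycline. Across the 293 sites Pearson's r of both folds was 0.22, a description over sites that both lists truncate at 1. When the lower sites were split by their drop into 4 groups of nearly equal size, the share listed again was 40.8% for the largest drops, then 35.9%, 29.5% and 28.6% for the smallest. When they were split by level it was 32.1%, 36.4%, 37.8% and 28.6% from low to high, with no steady order.

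**Figure D2:**
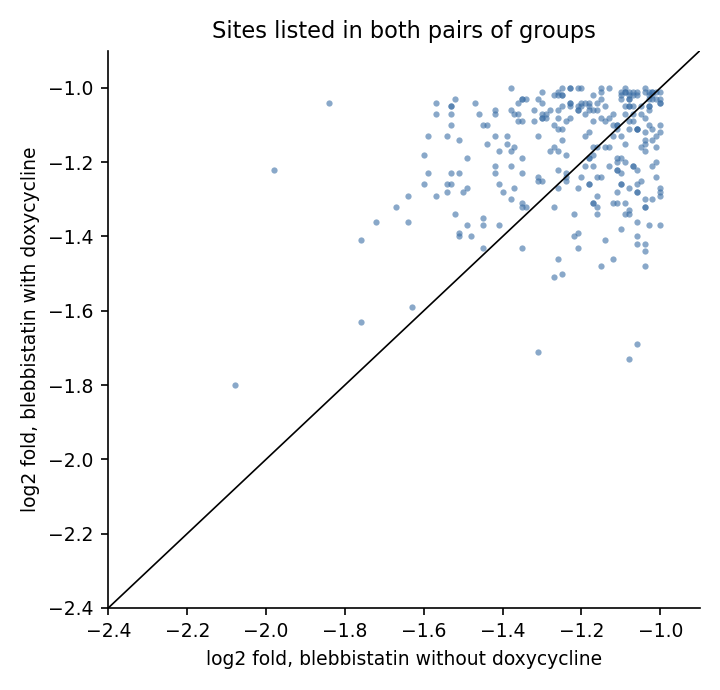
Log2 fold of blebbistatin without doxycycline (horizontal axis) and with doxycycline (vertical axis) at the 293 sites listed in both pairs of groups, with 1 point per site and a line at equal folds. All points lie at or under -1 on both axes, where the lists are cut, and the largest drop in both, at -2.08 and -1.80, is a site annotated to Rad23b.

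The list of doxycycline alone shares the group with neither drug with the sites' own list, so its values are only set beside them. It held 157 of the 880 sites (17.8%), 154 higher and 3 lower with doxycycline. Sites listed as higher made up 8.97% of an estimated 81359 tested there, and listed sites of either direction 9.36%. Of the 157, 78 (49.7%) were also lower with blebbistatin under doxycycline, against 215 (30.2%) of the 712 lower sites outside the doxycycline list. Both of those lists use the group with doxycycline alone, so nothing is read from that difference. The 3 sites lower with both drugs were annotated to Mesd, Sytl2 and Rgs20, which had log2 folds of -1.33, -1.30 and -1.12 with doxycycline and -1.39, -1.18 and -1.24 with blebbistatin. These 3 names were chosen after their values were seen.

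The Y27632 list was made against the DMSO libraries of the ATAC blebbistatin list, which the choice of sites used, so nothing is read from its low share. It held 13 of the 880 sites (1.48%), against 0.335% of an estimated 61804 sites tested, and 78 of the 351 (22.2%). All 13 had the same direction as with blebbistatin, 12 lower and 1 higher. The Tagln promoter site, at a gene for an actin-binding protein, had log2 folds of -1.29 and -1.78 with the respective inhibitors. A site in an intron of Actn4, the gene of an actin crosslinker, gave -1.23 and -1.35, and a site near Lats2, the gene of a kinase that restrains YAP, gave -1.13 and -1.25. The site of the 13 that was higher lay in an intron annotated to Sned1, with folds of 1.14 and 1.37. In none of the 3 other lists were 502 of the 880 sites (57.0%).

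**Figure D3:**
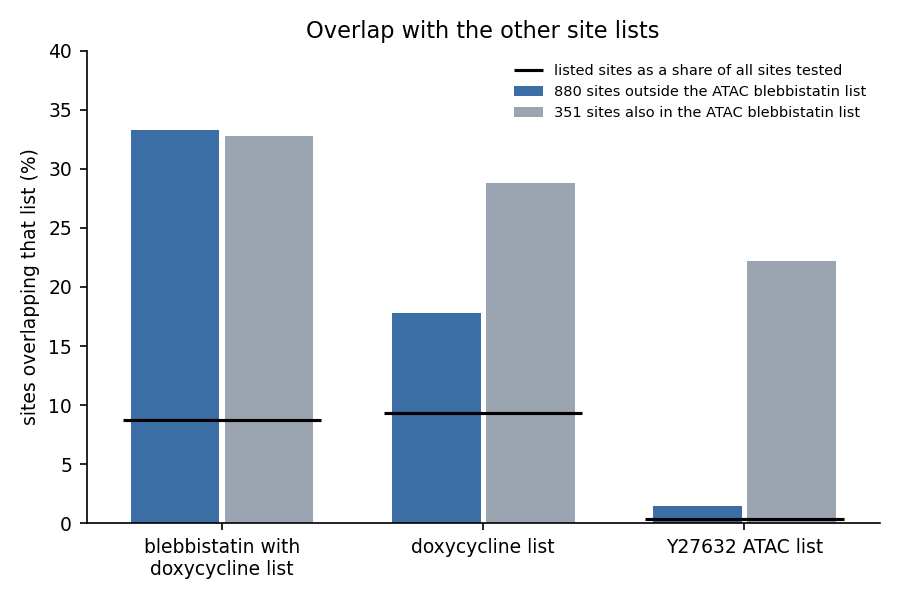
Share of sites that overlap each of the other lists by at least 1 bp (vertical axis, percent), for the 880 sites outside the ATAC blebbistatin list and the 351 inside it; black lines give the listed share of all sites tested. The shares are 33.3% and 32.8% for blebbistatin with doxycycline, 17.8% and 28.8% for doxycycline, and 1.48% and 22.2% for Y27632.

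The 5 largest drops were at sites whose level with neither drug was under the median of 6.01 over all 880. The lowest log2 fold, -2.67, was at chr11:56433126-56433230, where the level went from 4.83 to 2.16, 392191 bp from the start of Nmur2, the gene of a neuromedin receptor. A site 129184 bp from Eya4, the gene of a transcriptional co-activator, had -2.18. The site annotated to Rad23b, a DNA repair gene, had -2.08 and -1.80 without and with doxycycline. The remaining 2 of the 5 largest drops were annotated to 4930548J01Rik (-2.07) and Mir28b (-1.98), and the latter also recurred under doxycycline at -1.22.

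Some sites lay in runs. With a gap of at most 10000 bp, 88 sites (10.0%) formed 41 runs, and the longest run of 4 sites lay at chr3:145645334-145646654, 3590 to 4538 bp from the Ccn1 start. Its 4 sites had levels of 7.49 to 8.75 with neither drug and log2 folds of -1.39 to -1.56, and none of them was listed under doxycycline. The Ccn1-annotated site shown above, 16893 bp from that start, had a fold of -1.19 with blebbistatin and was higher with doxycycline at 1.23. Counted by gene, Cpxm2, which encodes a carboxypeptidase-like secreted protein, had 7 sites, Ccn1 had 5, and Caap1, Jag1 and Gm13985 had 4 each. The 7 sites at Cpxm2 had folds of -1.02 to -1.52, and 2 of them recurred under doxycycline.

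The RNA libraries asked whether the genes nearest to these sites changed as well. RNA values are normalised counts, reads divided by a size factor per library, tested with limma on log2(normalised count + 1) and called where the adjusted p was under 0.05. Of 760 genes annotated to the sites, 752 were found in the RNA tables, and 507 genes linked to lower sites had a mean of at least 10 normalised counts and were tested. With blebbistatin, 360 of the 507 (71.0%) were called, 252 lower and 108 higher, against 53.0% of 14882 genes tested, of which 26.9% were lower and 26.1% higher. The median log2 change was -0.18 for the linked genes and 0.00 for all genes. In bulk RNA, fewer cells of a type and less RNA per cell cannot be told apart.

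A larger share was lower among genes close to a lower site and genes with several. For the 107 tested genes with a lower site within 10000 bp, 69 were lower and 15 higher with blebbistatin, and the median was -0.36. Among 69 tested genes with at least 2 lower sites, 43 were lower and 6 higher. A gene with both a lower site of the 880 and a lower site of the 351 was lower in 35 and higher in 3 of 51 cases. The median of these genes was -0.53. Genes whose sites recurred under doxycycline were lower in 48.9% of 176 cases, and those whose sites did not in 50.2% of 331. These groups share genes, and their differences were not tested.

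With Y27632, 262 of 507 linked genes (51.7%) were called, 181 lower and 81 higher, against 35.9% of 14833 genes tested, of which 17.8% were lower and 18.1% higher. The median was -0.07 for the linked genes. Near sites, 55 of 108 tested genes were lower and 12 higher, with a median of -0.16. Both RNA comparisons use the same 3 DMSO libraries, so their values stand side by side only.

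**Figure D4:**
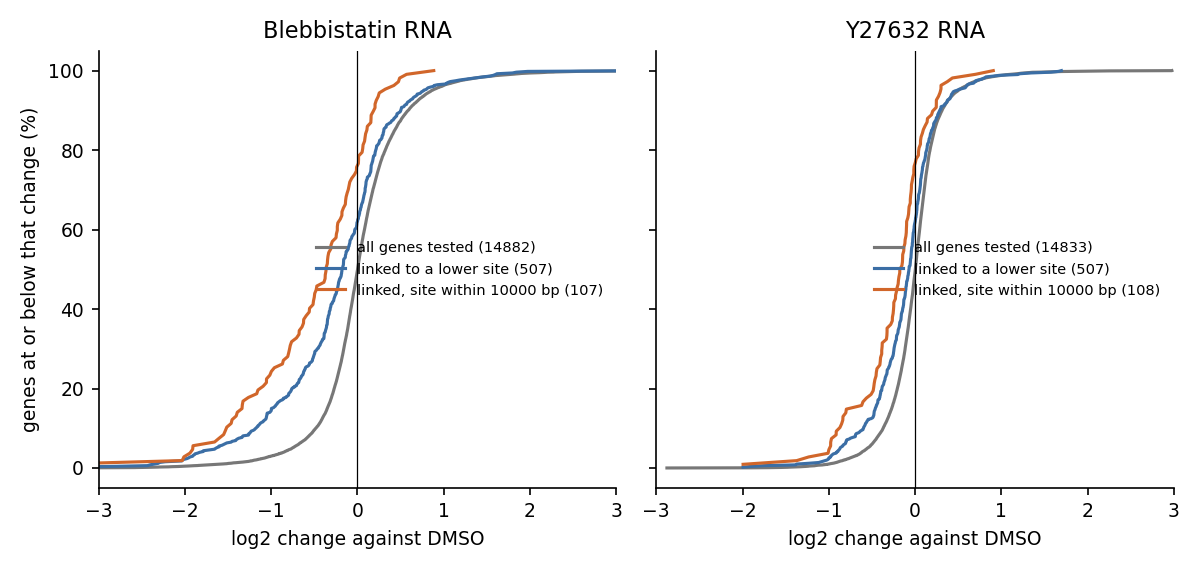
Cumulative share of genes (vertical axis, percent) at or below each log2 change against DMSO (horizontal axis) for blebbistatin on the left and Y27632 on the right: all genes tested, genes linked to a lower site, and those with such a site within 10000 bp. The curves of linked genes lie left of the curve of all genes, with medians of -0.18 and -0.36 against 0.00 for blebbistatin.

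The RNA samples carried the markers of tendon fibroblasts, with all 11 at 10 or more normalised counts in DMSO. Library depth was 23375386 to 37061737 reads in genes. Some markers of other cells were present and moved with treatment: 6 of 8 leukocyte markers were at 10 or more, and their sum was 1959 to 2153 over DMSO libraries and 2629 to 3040 with blebbistatin, and 2034 to 2238 and 2671 to 3058 for DMSO and Y27632. Of 5 endothelial markers 3 were at 10 or more, most of it Tek, and their sum was 3166 to 3230 over DMSO libraries and 2006 to 2250 with blebbistatin, and 3290 to 3353 and 2955 to 3153 for DMSO and Y27632. Schwann and nerve markers, 3 of 4 at 10 or more, summed to 194 to 240 over DMSO libraries and 353 to 383 with blebbistatin, and 202 to 250 and 242 to 300 for DMSO and Y27632. These Schwann and nerve sums did not overlap between DMSO and blebbistatin, but they did between DMSO and Y27632. The leukocyte and endothelial sums did not overlap in either comparison. Cartilage markers, 2 of 3 at 10 or more, summed to 137 to 166 and 210 to 229 for DMSO and blebbistatin, and 142 to 172 and 224 to 232 for DMSO and Y27632. All 4 mural markers were at 10 or more, and their sum was 2271 to 2563 and 2700 to 3017 for DMSO and blebbistatin, and 2360 to 2664 and 2572 to 3180 for DMSO and Y27632. None of 5 keratinocyte markers reached 10. The part of other cells in the results was not tested.

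Among 28 YAP and TAZ target genes, 7 were annotated to 16 of the 880 sites. All 16 were lower, as were 98.8% of the 880. Of all 14882 genes tested in RNA, 507 were linked to lower sites. In RNA, 6 of these 7 genes were called lower with blebbistatin and none higher, with a median log2 change of -1.05. The whole list had 20 lower and 4 higher of 27 tested. Over all 14882 genes tested, 26.9% were called lower and 26.1% higher. Cyr61, the name of Ccn1 in the RNA tables, had 9898, 10690 and 10942 normalised counts in DMSO and 2346, 2666 and 2818 with blebbistatin. The groups were far apart, with a log2 change of -2.01 ± 0.0593 (SE, n = 3 per group; limma adjusted p = 7.3e-11). Thbs1, which encodes the matrix protein thrombospondin 1, had 246916, 265062 and 251542 in DMSO and 46605, 53697 and 54287 with blebbistatin. Its change was -2.31 ± 0.0538 (SE; limma adjusted p = 1.15e-11), again with no overlap.

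Ctgf, the name of Ccn2 in the RNA tables, fell by 1.60 on the log2 scale with blebbistatin (limma adjusted p = 4.52e-08), and its sites lay 116044 and 118626 bp before the start, in an intron of a neighbouring gene. Rbms3, an RNA-binding protein gene, changed by -1.05, Lats2 by -0.80 and F3, the gene of tissue factor, by -0.37, all called lower. Asap1, a GTPase-activating protein gene with 3 sites, had a change of 0.02 that was not called. With Y27632, the changes were -0.41 for Thbs1, -0.27 for Rbms3 and -0.26 for Lats2, all called lower. Cyr61 changed by -0.13 with Y27632 (limma adjusted p = 0.0372), and this call was lost without DMSO replicate 2 or 3 or Y27632 replicate 1 or 2, at adjusted p of 0.0709 to 0.162. F3 was called higher at 0.13, though not once DMSO replicate 2 or Y27632 replicate 3 was removed, which gave limma adjusted p of 0.0697 and 0.0596. Ctgf at -0.11 was not called.

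Of 25 actin and SRF target genes, 5 had 1 lower site each. Cnn2, which encodes calponin 2, had 7243, 7406 and 7721 normalised counts in DMSO and 2718, 2839 and 2885 with blebbistatin. The groups did not overlap and the log2 change was -1.41 ± 0.0362 (SE; limma adjusted p = 2.91e-11). Flna, the gene of the actin crosslinker filamin A, changed by -0.49 and Actn4 by -0.33, both called. With Y27632 the same 3 genes fell, at -1.01 for Cnn2, -0.47 for Flna and -0.43 for Actn4. Myh10, the gene of a non-muscle myosin heavy chain, had 0.10 with blebbistatin and -0.05 with Y27632, neither called. It passed the threshold with blebbistatin when DMSO replicate 1 was left out, at 0.13 (limma adjusted p = 0.0385).

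Tagln, whose promoter site fell under both inhibitors, was too low in RNA to test. It had 7.94, 11.0 and 13.8 normalised counts in DMSO and 3.12, 12.3 and 4.59 with blebbistatin. In the separately normalised Y27632 comparison it had 8.26, 11.5 and 14.3 in DMSO and 1.5, 1.77 and 2.1 with Y27632. Its RefSeq gene overlaps Pcsk7 over 2480 bp, where reads of both genes may not have been told apart, and the strand setting of the counting is not given in the sources used here. Pcsk7 had 1092 to 1143 normalised counts in DMSO and 1000 to 1079 with blebbistatin. In the Y27632 comparison it had 1135 to 1188 in DMSO and 1260 to 1343 with Y27632. Whether the overlap affected the counts of Tagln was not tested.

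Of 13 AP-1 genes, Jun and Fos each had 1 lower site, and both sites recurred under doxycycline. Their RNA went the other way. Jun had 1794, 1668 and 1863 normalised counts in DMSO and 2843, 3173 and 2601 with blebbistatin, groups that did not overlap, while its site 19426 bp away had a log2 fold of -1.60. The RNA rose by 0.69 with blebbistatin (limma adjusted p = 1.9e-06) and by 1.19 with Y27632. Fos, whose site had -1.12, rose by 0.44 with blebbistatin (limma adjusted p = 0.00786) and by 1.70 with Y27632.

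The matrix lists held few of the sites. Sparc and Col11a1, genes of a collagen-binding protein and a fibril collagen chain, had 1 lower site each of 34 matrix structure genes. Both were called lower with blebbistatin, at -0.19 and -0.52, and neither was called with Y27632. Of 26 genes of matrix degradation, Adamts5 and Adamts6 had 3 sites each and Adamts15 had 1. Adamts5, the gene of an aggrecan-cleaving protease, had 34852, 36966 and 34422 normalised counts in DMSO and 10239, 10108 and 10397 with blebbistatin. The groups were apart, and the log2 change was -1.79 ± 0.0332 (SE; limma adjusted p = 2.61e-12) with blebbistatin and -0.56 with Y27632.

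Adamts15, another protease gene of the family, went the opposite way. It had 66.5, 90.5 and 80.4 normalised counts in DMSO and 963, 838 and 948 with blebbistatin, the largest rise among genes linked to lower sites that were named by the rule. The log2 change was 3.53 ± 0.110 (SE; limma adjusted p = 1.1e-10), and it was 1.66 with Y27632. Its site lay 125925 bp from the start and had a fold of -1.09. Adamts6 was called lower at -0.16 (limma adjusted p = 0.0303), and this call was lost without DMSO replicate 2 or 3 or blebbistatin replicate 1 or 2, at adjusted p of 0.0529 to 0.10. It was also lost with the replicate block (limma adjusted p = 0.0546) and in the authors' deposited table (DESeq2 adjusted p = 0.147).

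In the list of 23 TGF-beta and BMP genes, Ltbp2, a latent TGF-beta binding protein gene, had 1 lower site and a change of 0.01 that was not called. Of 21 adhesion genes, Nedd9, the gene of a focal adhesion scaffold, had 1 lower site. It had 2947, 3252 and 3117 normalised counts in DMSO and 1357, 1445 and 1502 with blebbistatin, with no overlap. Its log2 change was -1.11 ± 0.0481 (SE; limma adjusted p = 1.85e-09), and -0.41 with Y27632.

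Ptx3, which encodes the secreted pattern-recognition protein pentraxin 3, had 14844, 15047 and 14607 normalised counts in DMSO and 1928, 2273 and 1939 with blebbistatin. The groups did not overlap, and the log2 change was -2.86 ± 0.0538 (SE; limma adjusted p = 2.61e-12) and -0.69 with Y27632. Its single site lay 63527 bp away and had a fold of -1.42. Other drops named by the rule were Adra1d, an adrenergic receptor gene, at -2.41, F2rl1, a protease-activated receptor gene, at -2.30, Fgf5 at -2.23, Arhgap20 at -2.04 and 6430584L05Rik at -2.03. F2rl1 had 0.17 with Y27632 and was not called, though it passed without Y27632 replicate 2 (0.27; limma adjusted p = 0.0245).

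Several genes linked to lower sites rose with blebbistatin. Myo1e, the gene of an unconventional myosin, had 1504, 1391 and 1428 normalised counts in DMSO and 5561, 5463 and 5974 with blebbistatin. The groups were apart and the log2 change was 1.97 ± 0.0434 (SE; limma adjusted p = 7.1e-12), with 0.61 under Y27632. Pde7b, a phosphodiesterase gene, rose by 1.62, Trabd2b by 1.25, Axin2, a feedback inhibitor of Wnt signalling, by 1.08, Txndc16 by 1.05 and Eya4 by 1.03. Eya4 rose although its site had the second largest drop of the 880. Such opposite pairs lay 11441 bp apart for Fos, 19426 bp for Jun and 129184 bp for Eya4. They also occurred close to a start: Cacul1 had lower sites 577 and 786 bp away, while its RNA rose by 0.22 with blebbistatin.

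With Y27632, large drops named by the rule included those of Adra1d (-1.75), Tdrkh (-1.37), Gadd45g, a stress-response gene (-1.23), Cdc42ep3, a gene of a Cdc42 effector (-1.12), Cnn2, Slc1a6, a glutamate transporter gene (-0.999), and A430105I19Rik (-0.98). All of these also fell with blebbistatin, with changes beside those already given of -1.39 for Tdrkh, -1.55 for Gadd45g, -1.88 for Cdc42ep3, -1.66 for Slc1a6 and -0.64 for A430105I19Rik. Klf2, a gene of a transcription factor that responds to flow, had opposite changes: 958 normalised counts on average in DMSO against 545 with blebbistatin, a change of -0.82, but 995 against 1749 with Y27632, a change of 0.81. Lif, a cytokine gene, rose by 1.21 with Y27632 and had 0.21 with blebbistatin, which was not called. Nfkbiz, whose site was lower with both inhibitors, rose by 0.64 with blebbistatin and 0.79 with Y27632.

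The genes with the most sites differed. Jag1, which encodes a Notch ligand, had 4 sites between 268149 and 546844 bp before its start. It had 729, 796 and 669 normalised counts in DMSO and 329, 339 and 359 with blebbistatin. The groups did not overlap, and the log2 change was -1.09 ± 0.0724 (SE; limma adjusted p = 8.44e-08), with -0.46 under Y27632. Caap1 fell by 0.36 with blebbistatin (limma adjusted p = 0.00491). Cpxm2, with 7 lower sites, had 0.10 with blebbistatin (limma adjusted p = 0.0917), which passed at 0.14 without blebbistatin replicate 3 (limma adjusted p = 0.0349), and it rose by 0.27 with Y27632.

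The 13 promoter sites lay at 12 genes and were all lower, as were 98.8% of the 880 sites. These genes were picked out after their values were seen. Of the 8 tested, 7 were called lower with blebbistatin and Cacul1 was called higher at 0.22. Among all 14882 genes tested, 26.9% were called lower and 26.1% higher. Lurap1l, the gene with a CArG box in the stretch shown, had 3820, 3924 and 4020 normalised counts in DMSO and 966, 1117 and 981 with blebbistatin. The groups were apart, with a log2 change of -1.94 ± 0.0528 (SE; limma adjusted p = 4.46e-11) and -0.56 with Y27632. Radil, which encodes an adhesion regulator that binds Rap GTPases, had 959, 930 and 827 in DMSO and 590, 596 and 571 with blebbistatin, again without overlap. Its change was -0.63 ± 0.0612 (SE; limma adjusted p = 2.97e-06), and -0.40 with Y27632. Rasgrp3 changed by -1.02, Rhobtb3 by -0.47, Oxnad1 by -0.35 and Fhl1 by -0.11, all called lower.

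The 11 higher sites were annotated to 11 genes, of which 10 were tested. With blebbistatin, 5 were called higher and 4 lower in RNA, against 26.1% and 26.9% of all genes tested. Sned1, which encodes a secreted matrix protein, had 11255, 11331 and 10149 normalised counts in DMSO and 25375, 23328 and 22712 with blebbistatin. The groups did not overlap, and the log2 change was 1.13 ± 0.0488 (SE; limma adjusted p = 1.92e-09), with 0.61 under Y27632. Adam12, the gene of a membrane metalloprotease, had 1330, 1309 and 1280 in DMSO and 4567, 4794 and 4862 with blebbistatin. Its log2 change was 1.86 ± 0.0372 (SE; limma adjusted p = 3.85e-12), and 1.20 with Y27632, while its site, in an intron 47779 bp from the start, had a fold of 1.01.

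Phactr1, an actin and phosphatase regulator gene, rose by 0.93 and had both a higher site (1.16) and a lower one (-1.38). Capzb, the gene of an actin capping subunit, rose by 0.35. Zranb3, with the largest fold of a higher site at 1.28, was called higher at 0.34 (limma adjusted p = 0.0197), and the call was lost without DMSO replicate 2 or 3 or blebbistatin replicate 1, at adjusted p of 0.0569 to 0.0835, and in the authors' deposited table (DESeq2 adjusted p = 0.0661). The 4 lower genes were Gm14005, listed as Morrbid at the site, at -0.75, Pik3cg at -0.50, Snx19 at -0.45 and Efemp1 at -0.14. Snx19 had both a higher site (1.16) and a lower one (-1.07). Pik3cg lost its call without DMSO replicate 3 (limma adjusted p = 0.061), and Cdkal1 at 0.06 was not called.

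**Figure D5:**
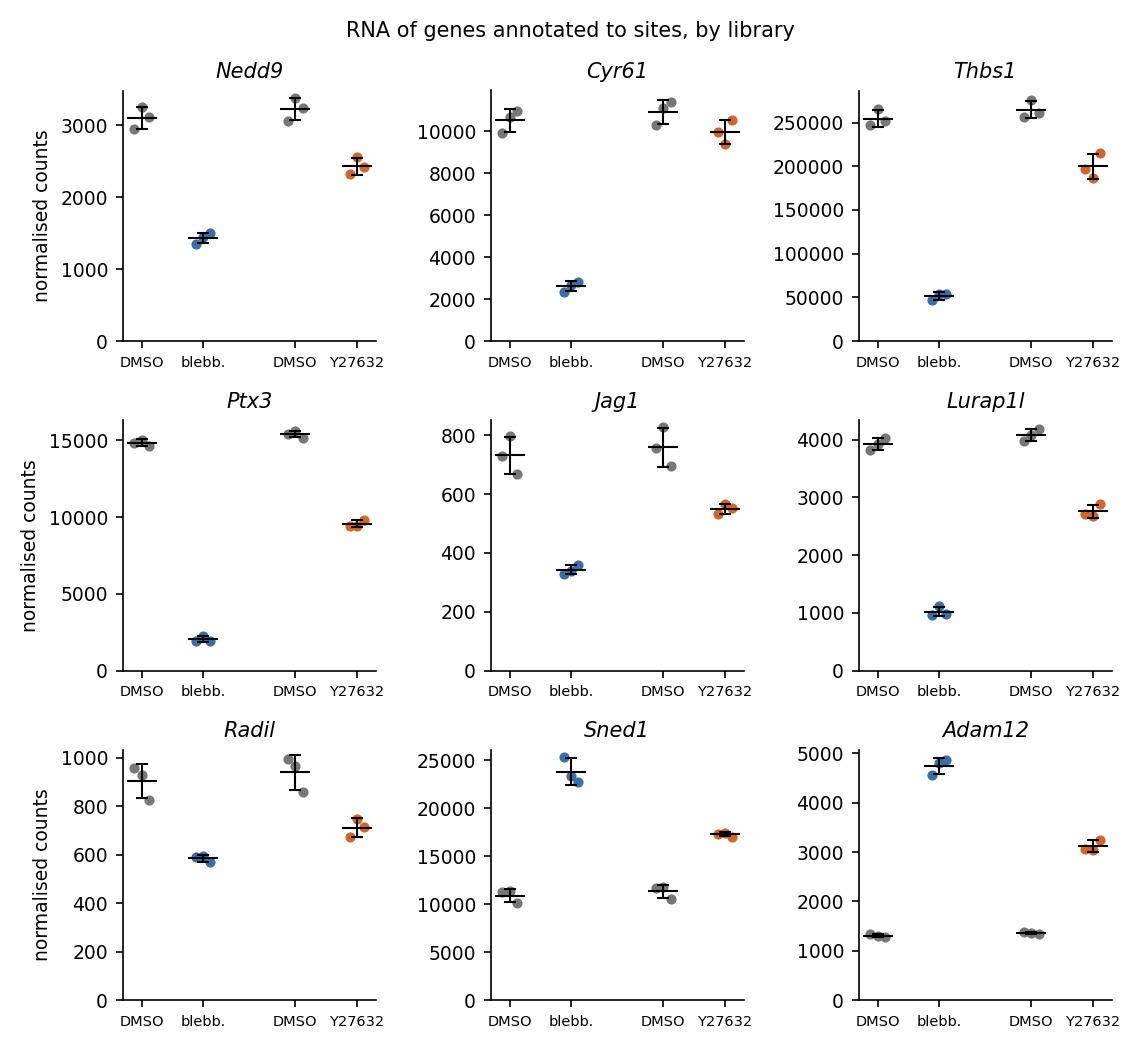
Normalised counts per library (vertical axes, starting at 0) of 9 genes annotated to the sites, with the mean and SD of 3 libraries in black; each panel shows DMSO and blebbistatin from one table and the same DMSO libraries and Y27632 from the other, normalised separately. Nedd9 has 2947 to 3252 in DMSO against 1357 to 1502 with blebbistatin, while Sned1 and Adam12, annotated to higher sites, are higher with both inhibitors.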

How the data were processed

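Gene expression and chromatin sites were measured in 30 libraries, 3 per group. Per the submitters' processing notes, mm10 was the build, and HISAT2, featureCounts and DESeq2, and Bowtie2, SAMtools, Picard, MACS2, DiffBind and HOMER were used, with no versions or roles given. The site lists that the authors deposited hold log2 group means, log2 folds, p-values and FDR values per the file headers, and a distance and annotation of the nearest gene. The RNA tables that the authors deposited hold a signal per gene and library, counts divided by a size factor, separately in each table; log2 fold changes, p-values and a −log10 score column stand beside it, per the file headers. The score was not used. The number of sites tested was estimated from the deposited FDR, p-value and rank.

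One column of the doxycycline list carries the header of the blebbistatin group. At 13 sites with equal coordinates its values lay -0.13 ± 0.00439 (mean and SD over sites) from those of the group without either drug, but 1.12 ± 0.184 from those of the named group. It was taken as the former.

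An overlap of 1 bp sufficed for sites to be shared, and sites were linked to genes by the authors' annotation; 26 genes were found under an older symbol. A gene was tested where its normalised counts averaged 10 or more, by limma 3.58.1 (trend, no replicate block) in R 4.3.3 after adding 1 and taking log2, and called at a Benjamini-Hochberg adjusted p under 0.05. That scale understates changes of low genes. On simulated data the test was checked before use. Whole reads were recovered from the size-factor steps for 100% of the values, within 0.1 reads, and tested with edgeR 4.0.16 as an alternative. Other alternatives were the pseudocount, the filter, each replicate left out, a replicate block, the authors' deposited DESeq2 columns, the linking distance, the FDR and the overlap. Promoter windows, motifs and gene overlaps came from RefSeq GRCm38.p6. No genome was used, so other sites have no sequence here.

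Sites named are the 5 lowest folds, all higher ones, those of gene lists and those of genes with at least 4. Genes named are, per treatment, the 8 lowest and 8 highest called changes with a mean of at least 100 normalised counts and no overlap of groups, and the genes of the named sites; some genes that meet this rule are left out of the text. The sites and gene lists were chosen with earlier results of these data known. Sample columns without a matching label numbered 0.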

Additional observations from a re-analysis of the deposited data

How the results depend on the processing

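The depth of the site libraries is unknown, since only group means were used, so whether the 880 sites differ from the shared ones by depth cannot be told apart. The count of 880 sites fell to 494 at an FDR of at most 0.01, by the smaller set taken. Of those 494, 171 (34.6%) were in the list with doxycycline and 83 (16.8%) in the doxycycline list. With the Y27632 list held to an FDR of at most 0.01, 5 of the 880 sites overlapped it. With links only within 50000 bp, fewer genes entered by construction, and 218 of 297 were called with blebbistatin and 161 of 296 with Y27632. Leaving out each replicate gave 333 to 350 called genes with blebbistatin and 226 to 253 with Y27632. The authors' deposited table called 325 and 231, and edgeR on recovered reads, chosen after seeing the data, 360 and 266. Over the named genes, 1419 of 1467 alternative values kept direction and side of the threshold, 34 lost the call, 4 gained it and 10 changed sign.

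Deviations of libraries with the same replicate number correlated at -0.0947 to 0.0225, so the numbers do not pair the libraries. With the replicate block, 349 linked genes were called with blebbistatin and 236 with Y27632.

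All sign changes were in values not called in the main test. Leaving out 1 replicate at a time gave, with blebbistatin, 0.00 to 0.05 for Asap1, which turned without DMSO replicate 3, and -0.01 to 0.02 for Ltbp2, without blebbistatin replicate 3. With Y27632 it gave -0.04 to 0.08 for Caap1, which turned without DMSO replicate 1 or Y27632 replicate 2 or 3. Col11a1 gave -0.09 to 0.02 and turned without replicate 1 of either group. Adamts6 gave -0.02 to 0.05 and Myh10 -0.11 to 0.01, both turning without Y27632 replicate 1, and Asap1 gave -0.01 to 0.06, turning without Y27632 replicate 2. The cause was not tested.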

Other observations

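Among the 13 sites that were also in the Y27632 list, the lower ones included sites in introns annotated to Lrp2, Magi2, Aopep and Fig4, genes chosen here after their values were seen. Lrp2, the gene of the endocytic receptor megalin, had 78.4, 105.9 and 80.4 normalised counts in DMSO and 20.8, 22.2 and 9.19 with blebbistatin. The groups did not overlap, with a log2 change of -2.36 ± 0.293 (SE, n = 3 per group; limma adjusted p = 2.42e-05), and it was -1.90 with Y27632. The site had log2 folds of -1.53 with blebbistatin, -1.65 with Y27632 and -1.05 with blebbistatin under doxycycline. Magi2, the gene of a membrane scaffold protein, had 673, 605 and 624 in DMSO and 399, 381 and 390 with blebbistatin, also without overlap. Its log2 change was -0.70 ± 0.0621 (SE; limma adjusted p = 1.23e-06), and -0.25 with Y27632. Aopep, listed as 2010111I01Rik in the RNA tables, was not called, at 0.01 with blebbistatin (limma adjusted p = 0.837) and 0.07 with Y27632 (limma adjusted p = 0.189). Fig4 was not called with blebbistatin at -0.04 (limma adjusted p = 0.519), and it was lower with Y27632 at -0.13 (limma adjusted p = 0.0236).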
